A study of Mus musculus with 6 samples.

Results

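The genes described here are 10 genes through which cells receive and answer leukaemia inhibitory factor (LIF): the ligand gene Lif, the receptor genes Lifr and Il6st, the kinase genes Jak1 and Jak2, the transcription factor gene Stat3, and the response genes Socs3, Gbx2, Bcl3 and Pim1. Every probe set annotated to exactly 1 of these genes was taken, which gave 25 of the 45037 probe sets tested, and each of the 10 had at least 1, among 18193 genes measured in all. Mouse embryonic stem cells of the Oct4-Gip line, which carry a reporter and a drug resistance gene under control of Oct4 regulatory sequences, were profiled on Affymetrix Mouse430 version 2 arrays. The 3 Panct1 knockdown arrays came from cells given an esiRNA, an enzymatically cut pool of short double-stranded RNAs, against the long noncoding RNA Panct1. The 3 control arrays came from cells given an esiRNA against Luciferase, which has no target in these cells. In both groups 60000 cells were reverse transfected with 800 ng of esiRNA by lipofection, kept in medium with serum and added LIF, and harvested after 72 hours. The series asked which RNA levels change when Panct1 is depleted.

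LIF binds the LIF receptor, which pairs with the shared signalling chain gp130, the product of Il6st. The kinases JAK1 and JAK2, bound to the receptor tails, then phosphorylate STAT3, which dimerises, enters the nucleus and activates its targets. In mouse embryonic stem cells this route sustains self-renewal, and one of its targets, SOCS3, binds gp130 and the kinases and damps the signal. The arrays read RNA levels and do not read phosphorylation.

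All values are log2 signals made by RMA, in which a step of 1 is a doubling of signal. Array medians lay between 6.07 and 6.09 and lower quartiles between 4.65 and 4.70, and no member probe set had a mean below the lowest of these quartiles in either group. The annotation names no set for Panct1 itself, and its depletion was therefore not checked on the arrays. Cell type markers were called by limma at the brightest probe set per gene, with a threshold of 0.05 on the p adjusted over all probe sets. By that rule 11.1% of all genes rose and 8.93% fell. Of 8 embryonic stem cell markers, 1 (Zfp42) fell and 0 rose. The groups did not overlap for 5 lower and 1 higher of these 8, against 38.3% of all genes. Their mean log2 signal was 13.14 to 13.17 on Panct1 knockdown arrays and 13.24 to 13.30 on control arrays. Of 10 trophectoderm markers 8 rose and 0 fell, with mean log2 signals of 8.72 to 8.74 in Panct1 knockdown and 7.52 to 7.61 in controls, while Elf5 lay below the lower quartile in both. Of 7 primitive endoderm markers 1 rose and 2 fell, and of 8 fibroblast markers 2 rose and 0 fell. Among the fibroblast markers, Lum and Fap lay below the lower quartile in both groups, and Col3a1, which rose, did so in controls. The part of the trophectoderm markers in the differences given here was not tested, and in bulk RNA a changed share of cells and a changed RNA level per cell cannot be told apart.

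Of the 25 probe sets, 6 rose and 6 fell in Panct1 knockdown, by limma with a threshold of 0.05 on the adjusted p. Over all probe sets 14.6% passed, 7.82% as risen and 6.76% as fallen. The 3 Panct1 knockdown arrays did not overlap the 3 control arrays for 16 of the 25, against 30.4% of all probe sets. The median difference of the 25 was -0.12, and that of all probe sets was -0.02. These genes were chosen with earlier results of the same arrays known, so the counts describe them and do not stand as evidence on the pathway. With the brightest probe set per gene and adjustment over genes, 7 of the 10 genes passed, Lif, Jak2 and Pim1 as risen and Lifr, Stat3, Gbx2 and Bcl3 as fallen, against 24.2% of all genes, of which 12.9% rose and 11.3% fell. With adjustment over all probe sets, 6 of these 10 brightest sets passed, 3 as risen and 3 as fallen, against 20.0% of all genes, and Stat3 did not. The groups did not overlap for 8 of the 10, 3 higher and 5 lower in Panct1 knockdown, against 38.3% of all genes. With the mean of each gene's probe sets in place of the brightest, 5 of the 10 genes passed, 2 as risen and 3 as fallen, and Lif (difference 0.25, adjusted p = 0.0510) and Stat3 did not.

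**Figure D1:**
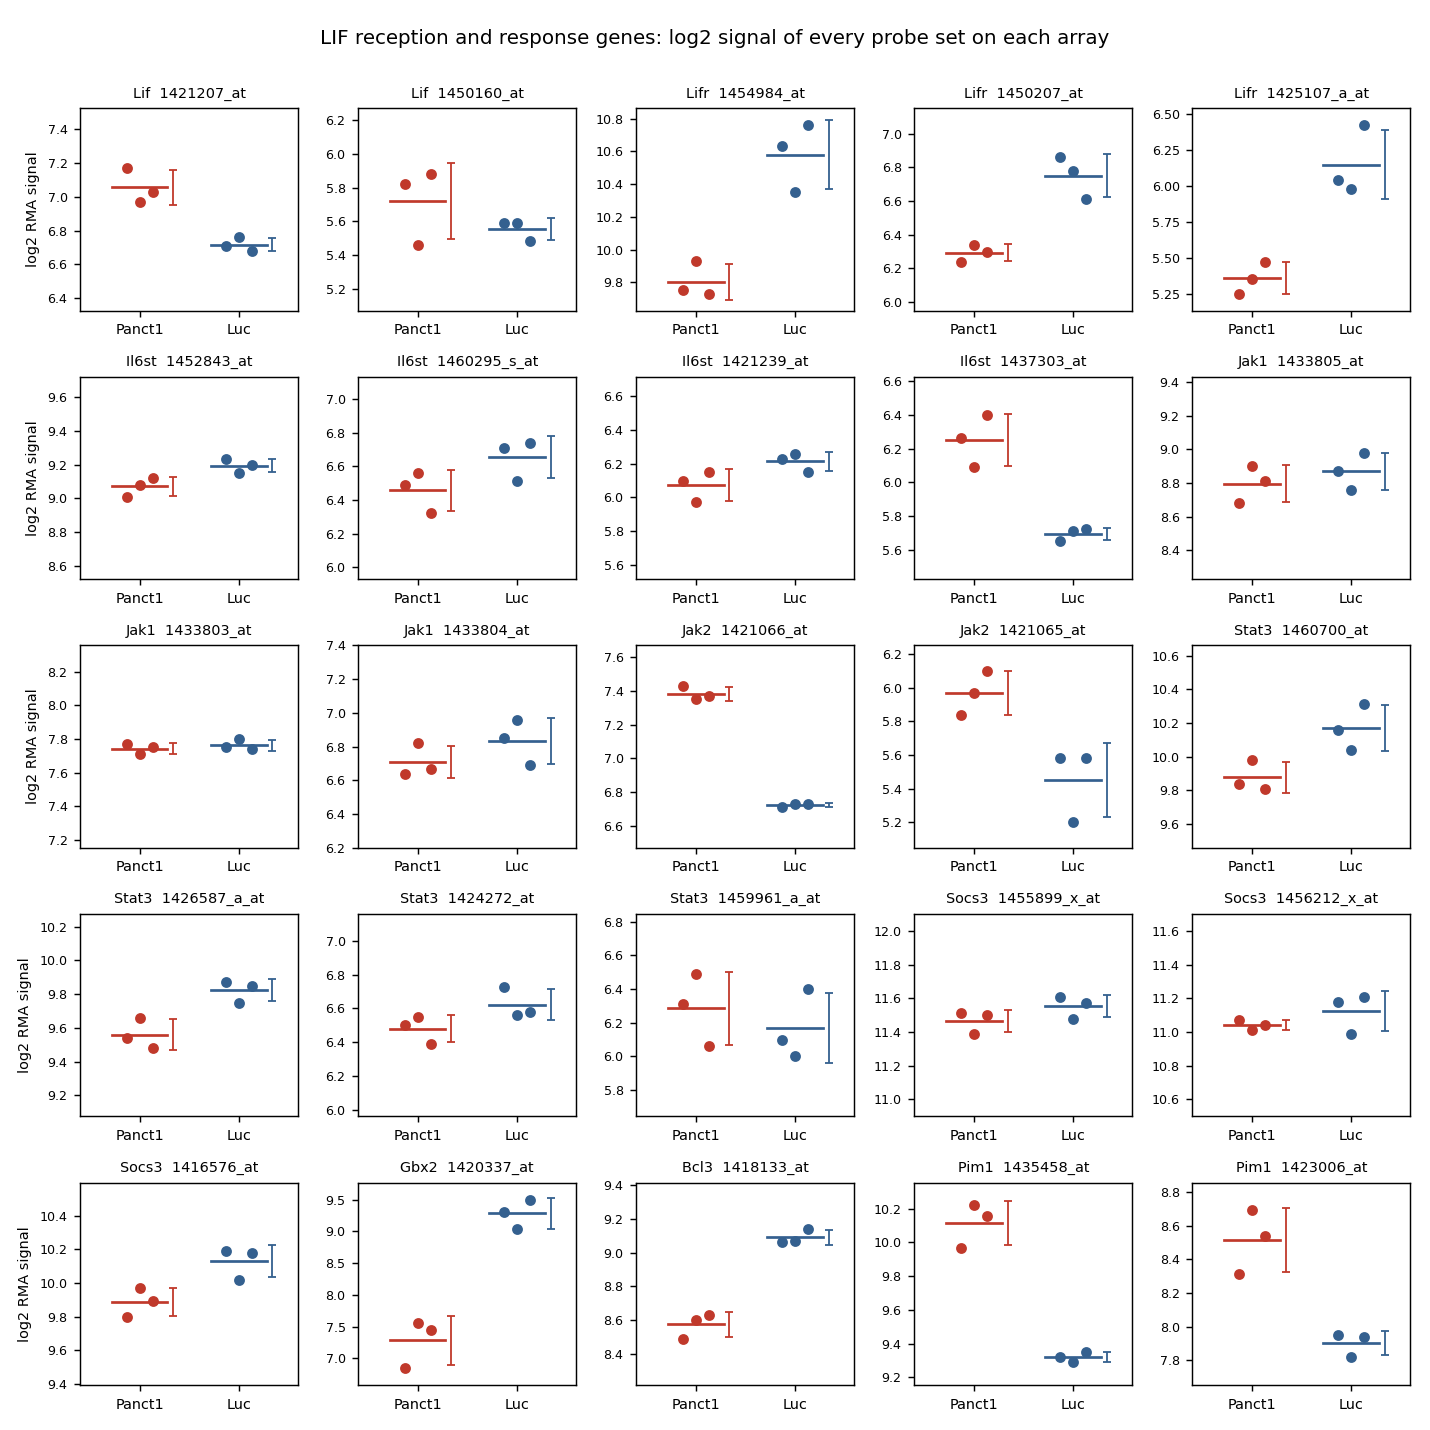
Log2 RMA signal of each of the 25 probe sets (vertical axis, own range in each panel) on the 3 Panct1 knockdown arrays (left, red) and the 3 Luciferase control arrays (right, blue); points are arrays, lines are means and bars are 1 SD. Gbx2 shows the widest gap, with 6.85 to 7.56 in Panct1 knockdown and 9.03 to 9.50 in controls, and the Jak1 panels show overlapping groups.

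The ligand was slightly higher at 1 of its probe sets. Lif, which encodes the cytokine itself, had signals of 7.17, 6.97 and 7.03 on Panct1 knockdown arrays and 6.71, 6.76 and 6.68 on control arrays at probe set 1421207_at. Every Panct1 knockdown array lay above every control array, and the difference was 0.34 (SE 0.07; limma adjusted p = 0.0163). At 1450160_at the signals were 5.82, 5.46 and 5.88 in Panct1 knockdown against 5.59, 5.59 and 5.48 in controls. The groups overlapped there, at a difference of 0.17 (95% interval -0.09 to 0.42; adjusted p = 0.401). The change at the 2 probe sets did not differ past the threshold (difference of changes -0.17, 95% interval -0.41 to 0.06; adjusted p = 0.364). The rise at 1421207_at did not pass without control replicate 1 (adjusted p = 0.0605) or without control replicate 3 (0.0553). The culture medium of both groups held added LIF, so the RNA level of Lif is not the amount of ligand around the cells.

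The gene of the LIF receptor chain fell at all 3 of its probe sets. Lifr, which encodes the LIF receptor, had signals of 9.75, 9.93 and 9.73 in Panct1 knockdown and 10.63, 10.35 and 10.76 in controls at 1454984_at. This was 1.71-fold lower, a difference of -0.78 (SE 0.11; limma adjusted p = 0.00210), with the highest Panct1 knockdown array below the lowest control array. At 1425107_a_at the signals were 5.25, 5.35 and 5.47 in Panct1 knockdown and 6.04, 5.98 and 6.42 in controls, a difference of -0.79 (adjusted p = 0.00286). At 1450207_at they were 6.24, 6.34 and 6.30 in Panct1 knockdown and 6.86, 6.78 and 6.61 in controls, a difference of -0.46 (adjusted p = 0.00617). The groups were separate at each of these sets. The smaller fall at 1450207_at did not differ past the threshold from that at 1454984_at (difference of changes 0.32, 95% interval -0.01 to 0.65; adjusted p = 0.225). These calls held on leaving out each array in turn.

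The shared receptor chain gave discordant probe sets. Il6st encodes gp130, which also serves the receptors of interleukin 6, oncostatin M and related cytokines. Its brightest set, 1452843_at, read 9.01, 9.08 and 9.12 in Panct1 knockdown against 9.23, 9.15 and 9.20 in controls. The groups did not overlap, but the difference of -0.12 (95% interval -0.27 to 0.03) did not pass (limma adjusted p = 0.287). At 1460295_s_at and 1421239_at the differences were -0.20 and -0.14 (adjusted p = 0.214 and 0.279), with overlapping arrays. At 1437303_at the signals were 6.26, 6.09 and 6.40 in Panct1 knockdown and 5.65, 5.71 and 5.72 in controls. This set rose by 0.56 (SE 0.09; adjusted p = 0.00337), with every Panct1 knockdown array above the controls. Its change differed from that of the brightest set by 0.68 (95% interval 0.46 to 0.90; limma on the within-array difference, adjusted p = 0.00566), and this held on leaving out any array (adjusted p from 0.0102 to 0.0283). Over all genes with several probe sets, 9.52% of 16752 such pairs passed this test. Which Il6st transcripts or exons each set reads is not stated in the labels or the annotation.

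The receptor-bound kinases had different values. Jak2 rose at both probe sets: at 1421066_at the signals were 7.43, 7.35 and 7.37 in Panct1 knockdown and 6.71, 6.73 and 6.73 in controls. This 1.58-fold rise (difference 0.66, SE 0.06; limma adjusted p = 2.65e-04) had little spread, with an SD of 0.04 in Panct1 knockdown and 0.01 in controls. At 1421065_at the signals were 5.84, 5.97 and 6.10 in Panct1 knockdown and 5.58, 5.20 and 5.58 in controls, a difference of 0.52 (adjusted p = 0.0190). Both sets had separate groups, and the call at the dimmer one was lost without Panct1 knockdown replicate 2 (0.0537) or replicate 3 (0.0688). Jak1, the kinase on which gp130 signalling is known to depend most, passed at none of its 3 sets. At its brightest, 1433805_at, the signals were 8.68, 8.90 and 8.81 in Panct1 knockdown and 8.87, 8.76 and 8.98 in controls. Its groups overlapped at every set, and the differences were -0.07, -0.02 and -0.12 (limma adjusted p = 0.664, 0.888 and 0.447). The 95% intervals of Jak1 ran from -0.33 at the lowest to 0.12 at the highest, so a change as large as that of Jak2 lay outside each of them.

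**Figure D2:**
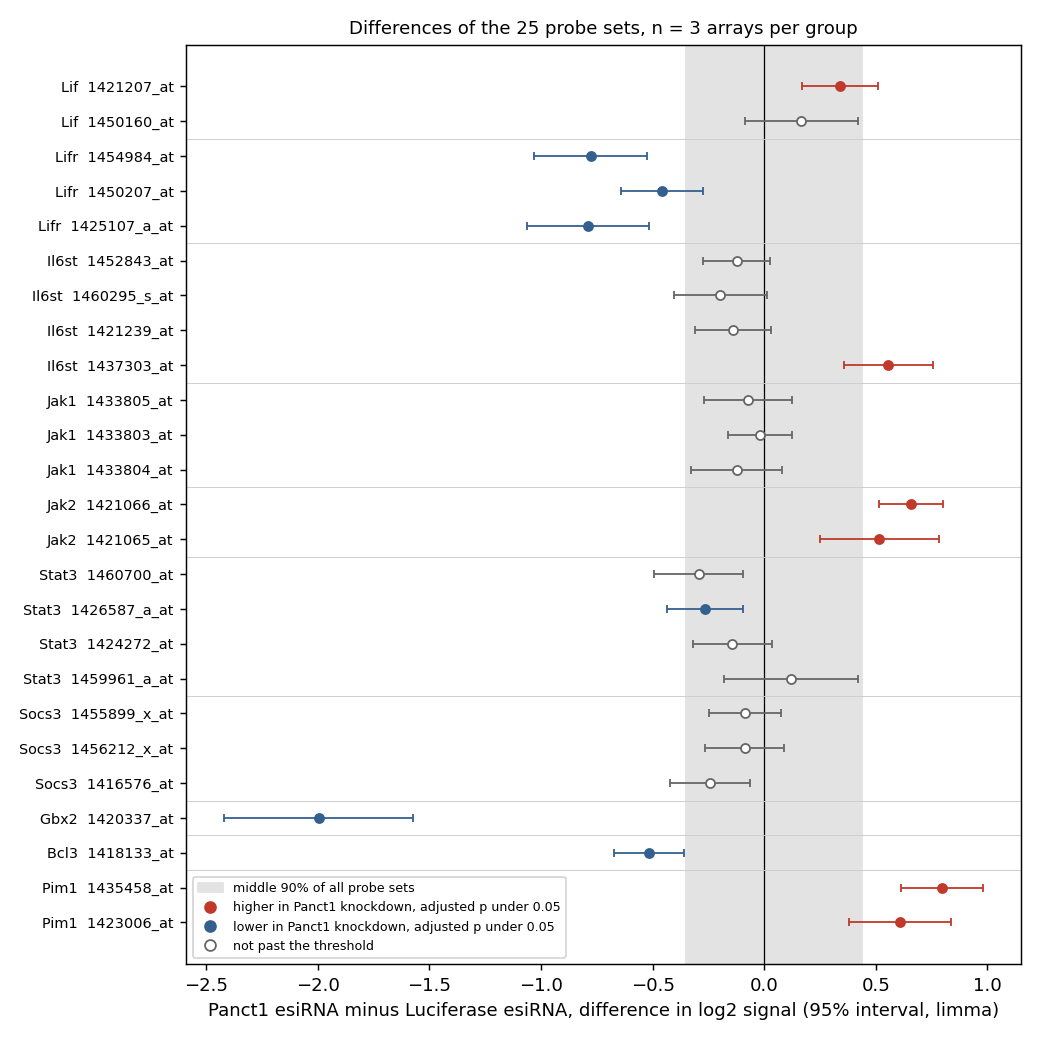
Difference in log2 signal, Panct1 knockdown minus Luciferase control, for each of the 25 probe sets with its 95% interval (horizontal axis; limma, n = 3 arrays per group). Filled points passed an adjusted p under 0.05, and the grey band holds the middle 90% of all probe sets, -0.35 to 0.44; the Lifr, Jak2, Gbx2, Bcl3 and Pim1 sets and 1 set of Il6st lie outside it.

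Stat3 was lower at its brighter probe sets by a small amount near the threshold. This gene encodes the transcription factor that LIF activates. At 1460700_at the signals were 9.84, 9.98 and 9.81 in Panct1 knockdown and 10.16, 10.04 and 10.31 in controls, a difference of -0.29 (SE 0.09) that did not pass over all probe sets (limma adjusted p = 0.0594). Over genes alone the adjusted p of this set was 0.0356. At 1426587_a_at they were 9.54, 9.66 and 9.48 in Panct1 knockdown and 9.87, 9.75 and 9.85 in controls, which fell by 0.26 (adjusted p = 0.0482). The arrays of the groups were separate at both sets, but the call at 1426587_a_at was lost on leaving out any 1 of the 6 arrays (adjusted p from 0.0516 to 0.155). At 1424272_at the difference was -0.14 (95% interval -0.32 to 0.03). The fourth set, 1459961_a_at, read 6.31, 6.49 and 6.06 in Panct1 knockdown and 6.10, 6.00 and 6.40 in controls, which overlap, at a difference of 0.12. Its change differed from that of 1460700_at by 0.41 (adjusted p = 0.0346), a call lost without Panct1 knockdown replicate 1 (0.0957) or 2 (0.115) or without control replicate 1 (0.118) or 2 (0.0943). As the mean of its probe sets, Stat3 differed by -0.14 over genes (adjusted p = 0.234).

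Socs3, the feedback inhibitor that STAT3 itself induces, did not pass at any of its 3 sets. At 1416576_at the signals were 9.80, 9.97 and 9.89 in Panct1 knockdown and 10.19, 10.02 and 10.18 in controls, separate groups with a difference of -0.24 (95% interval -0.42 to -0.06; limma adjusted p = 0.0767). At 1455899_x_at they were 11.51, 11.39 and 11.50 in Panct1 knockdown and 11.61, 11.48 and 11.57 in controls, a difference of -0.09 (-0.25 to 0.07). At 1456212_x_at the difference was also -0.09 (-0.26 to 0.09), and the arrays of both x sets overlapped. The letter x marks sets with probes that match other sequences too. The call at 1416576_at turned to fallen when limma used a robust, intensity-dependent variance (adjusted p = 0.0375). Over the 3 sets the intervals ran from -0.42 at the lowest to 0.09 at the highest.

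The STAT3 target genes moved in opposite directions. Gbx2, which encodes a homeodomain transcription factor under LIF control in embryonic stem cells, had signals of 6.85, 7.56 and 7.44 in Panct1 knockdown and 9.31, 9.03 and 9.50 in controls at 1420337_at, its one probe set. It was 3.99-fold lower, with means of 7.28 ± 0.38 in Panct1 knockdown and 9.28 ± 0.24 in controls (SD, n = 3 each; difference -2.00, SE 0.19; limma adjusted p = 2.33e-04). Panct1 knockdown replicate 1 was the lowest array, and without each array in turn the difference stayed between -2.13 and -1.78. Among 18193 genes, Gbx2 ranked 5 from the largest fall. Bcl3, an IkB family protein that acts with NF-kB subunits in the nucleus, had signals of 8.49, 8.60 and 8.63 in Panct1 knockdown and 9.06, 9.07 and 9.14 in controls at 1418133_at. It was 1.43-fold lower (difference -0.52, SE 0.07; adjusted p = 0.00150), with an SD of 0.07 in Panct1 knockdown and 0.04 in controls.

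Pim1, a serine/threonine kinase gene that STAT factors induce, rose at both probe sets. At 1435458_at the signals were 9.97, 10.22 and 10.16 in Panct1 knockdown and 9.32, 9.29 and 9.35 in controls, a 1.74-fold rise (difference 0.80, SE 0.08; limma adjusted p = 3.49e-04). At 1423006_at they were 8.31, 8.69 and 8.54 in Panct1 knockdown and 7.95, 7.82 and 7.94 in controls (difference 0.61, SE 0.10; adjusted p = 0.00436). The groups were separate at both sets, and Panct1 knockdown replicate 1 had the lowest of the Panct1 knockdown values at each. The change at the 2 sets did not differ past the threshold (difference of changes -0.19, adjusted p = 0.196). The falls of Gbx2 and Bcl3 and the rise of Pim1 each held on leaving out each array in turn.

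**Figure D3:**
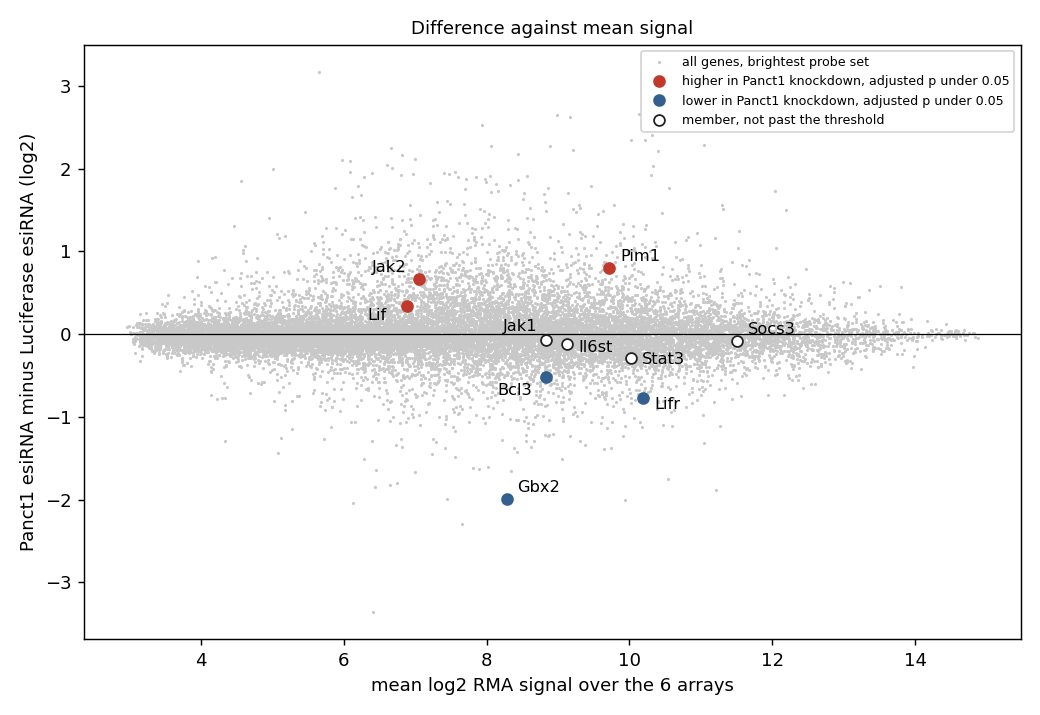
Difference in log2 signal, Panct1 knockdown minus Luciferase control (vertical axis), against the mean log2 signal over the 6 arrays (horizontal axis) for the brightest probe set of each of 18193 genes (grey), with the 10 LIF reception and response genes named. Gbx2 lies at -2.00, near the lower edge of all genes, while Jak1, Il6st and Socs3 lie between -0.12 and -0.07.

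STAT dimers bind a palindrome of 2 half-sites, written TTCNNNGAA, or the same letters with a spacer that is 1 base longer. The windows of 300 bases around annotated start sites, from RefSeq on build GRCm38.p6, were searched for these letters. All 10 genes had such a window and Lifr and Pim1 had 2, so 12 were searched, and as both motifs read the same on either strand, 1 search covers both. TTCNNNGAA was found in 1 of the 12, that of Socs3, against 8.30% of 32851 promoters, and the motif with the longer spacer in 1, that of Gbx2, against 6.95%. The stricter TTCCNGGAA, a subset of the first motif, was found in 0 of the 12, against 1.15%. A match is a run of letters and not a shown binding site, and sites further from the start were not searched.

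The 250 bases upstream of the start sites of Gbx2, Socs3 and Pim1 are shown because these targets fell, did not pass and rose. Capitals mark the motif matches, which begin 111 bases before the start site in Gbx2 and 154 bases before it in Socs3, and each sequence ends at the base before the start site. The Gbx2 sequence is chr1:89931177-89931426 on the minus strand, the Socs3 sequence chr11:117969367-117969616 on the minus strand, and the Pim1 sequence, from the first of its annotated start sites, chr17:29490535-29490784 on the plus strand.
Gbx2: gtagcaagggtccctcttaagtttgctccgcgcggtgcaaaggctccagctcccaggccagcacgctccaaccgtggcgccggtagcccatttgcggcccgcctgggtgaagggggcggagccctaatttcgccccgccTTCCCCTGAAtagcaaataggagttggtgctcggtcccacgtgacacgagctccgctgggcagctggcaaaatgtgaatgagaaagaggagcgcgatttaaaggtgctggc
Socs3: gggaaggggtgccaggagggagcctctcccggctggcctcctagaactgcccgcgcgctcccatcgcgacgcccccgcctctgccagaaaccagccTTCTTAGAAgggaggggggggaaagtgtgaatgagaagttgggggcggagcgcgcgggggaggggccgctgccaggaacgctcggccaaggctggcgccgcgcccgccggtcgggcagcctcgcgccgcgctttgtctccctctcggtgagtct
Pim1: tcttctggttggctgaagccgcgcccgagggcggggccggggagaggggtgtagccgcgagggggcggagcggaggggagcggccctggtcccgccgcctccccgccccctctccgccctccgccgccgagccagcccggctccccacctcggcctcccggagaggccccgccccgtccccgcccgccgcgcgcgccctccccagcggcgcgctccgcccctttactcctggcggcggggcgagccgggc
The first Pim1 window was 81.3% G or C and the second 49.0%, and neither motif was found in these windows. The Socs3 and Gbx2 windows were 73.3% and 64.7% G or C, where the median of all promoters was 52.7%. The window of Bcl3, which fell like Gbx2, was 69.0% G or C and held neither motif.

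A list of 63 other genes of the pathway had 58 with a probe set of their own, and the other 5 were not analysed here. By the brightest set of each gene 14 rose and 11 fell, where 11.1% of all genes rose and 8.93% fell by the same rule. The median difference of the list was 0.00 and that of all genes -0.02. Of the 25 genes past the threshold 16 had several probe sets. In 6 of these (Tyk2, Pias1, Pias4, Pik3r1, Nfkbiz and Cebpd) the change at a dimmer set differed from that at the brightest. Over all genes 9.52% of such pairs of sets passed, which is a share of pairs and not of genes. The Pias4 set that differed had a control mean below the arrays' lower quartile, and another dimmer Pias4 set, 1455394_at, passed as fallen like the brightest. The 11 falls became 6 without Panct1 knockdown replicate 2 and 6 without control replicate 1.

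Among the other ligands and receptors of the gp130 family, 1 of 5 ligand genes (Il6) fell, with means below the arrays' lower quartile in both groups. At the brightest set 0 of 4 receptor genes passed, while a dimmer Cntfr set, 1431663_a_at, passed as fallen (difference -0.25, limma adjusted p = 0.0474). Of 3 other kinase genes, Tyk2, a JAK family member, fell by 0.43 at its brightest set (limma adjusted p = 0.00645). Its other set, 1432576_at, read 7.40, 7.54 and 7.38 in Panct1 knockdown and 7.48, 7.42 and 7.41 in controls, and the change at the 2 sets differed by 0.43 (95% interval 0.21 to 0.65; adjusted p = 0.0289). Yes1, a Src family kinase, fell by 0.37 at its brightest set (adjusted p = 0.0464), 1 of 4 sets and the one that passed. Of 5 other STAT genes, Stat4 and Stat5b rose and Stat6 fell. Stat6, the factor of interleukin 4 signalling, read 8.94, 9.07 and 9.21 in Panct1 knockdown and 9.81, 9.62 and 9.71 in controls, which is 1.56-fold lower (adjusted p = 0.00180) with separate groups. Of 14 inhibitors, Socs5, Socs6 and Pias1 rose and Pias2 and Pias4 fell, and 9 did not pass at the brightest set. Of these 9, Ptpn6 differed by 0.23 at its brightest set (limma adjusted p = 0.0994). Its other set, 1460188_at, passed as risen (difference 0.34, adjusted p = 0.0151). Pias2, a SUMO ligase of the protein inhibitor of activated STAT family, fell by 0.63 at its brightest set (adjusted p = 3.36e-04), and all 3 of its probe sets passed as fallen. Of 6 adaptors that link gp130 to the ERK and PI3K routes, Ptpn11 and Pik3r1 rose and Gab1 fell. Ptpn11 passed at 1 of its 3 probe sets and Pik3r1 at 1 of its 4. Gab1, a docking protein, read 12.10, 12.10 and 12.13 in Panct1 knockdown and 12.78, 12.67 and 12.82 in controls, a fall of all 3 of its probe sets and 1.57-fold at the brightest (adjusted p = 4.44e-04).

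Among 21 other targets of LIF or STAT3, 7 rose, 4 fell and 10 did not pass. Fos, an AP-1 subunit that many signals induce, read 10.62, 9.73 and 9.62 in Panct1 knockdown and 8.13, 8.45 and 8.29 in controls, a 3.25-fold rise (limma adjusted p = 0.00169) with Panct1 knockdown replicate 1 well above the other arrays. Nfkbiz, an IkB family gene like Bcl3, rose 1.82-fold (adjusted p = 3.34e-04) at its brightest set, while its other 2 sets did not pass. Zfp36, an RNA-destabilising protein gene, rose 1.71-fold. Pim2, the paralogue of Pim1, rose 1.69-fold, with 11.37, 11.75 and 11.82 in Panct1 knockdown and 10.81, 10.78 and 11.07 in controls (adjusted p = 0.00498). As at Pim1, Panct1 knockdown replicate 1 was the lowest of its group. Pim3, the third paralogue, differed by 0.07 at its brightest set (adjusted p = 0.582). Kdm3a, a histone demethylase gene, fell by 0.82 (adjusted p = 3.44e-04), and the others past the threshold were Klf4, Myc and Sgk1, which fell, and Tfcp2l1, Ier3 and Cebpd, which rose.

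**Figure D4:**
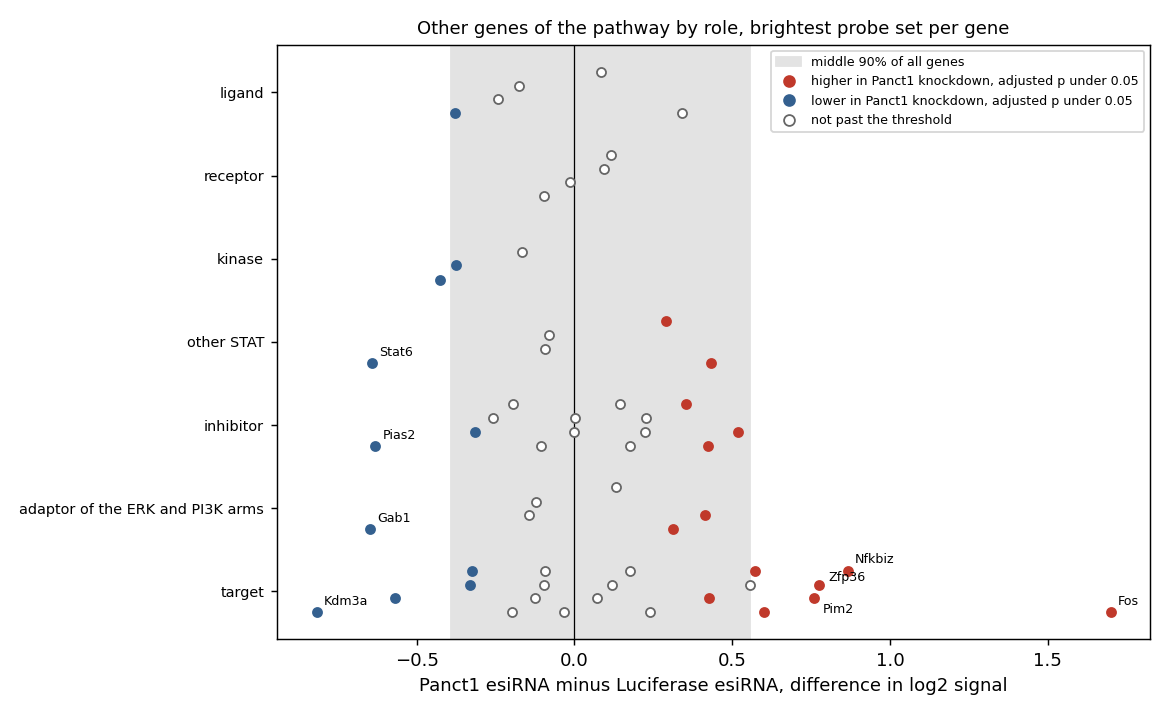
Difference in log2 signal, Panct1 knockdown minus Luciferase control (horizontal axis), for the brightest probe set of 58 other genes of the pathway, by role (vertical axis); filled points passed an adjusted p under 0.05 and the 4 largest calls in each direction are named. The grey band holds the middle 90% of all genes, -0.39 to 0.56, and every role but the receptors has at least 1 gene past the threshold.

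Likeness to Gbx2 and Pim1 was measured over the 6 arrays as the root mean square distance between log2 profiles, each taken relative to its own control mean. The genes closest to Gbx2 were Inhbb, a subunit gene of activin B and inhibin B, at 0.13, Enox1 at 0.18 and Ttn at 0.19, with differences between Panct1 knockdown and control of -1.99, -1.88 and -1.84. The genes closest to Pim1 were Cul4b, a ubiquitin ligase scaffold, at 0.026, and Gpc4, a glypican, and Ppfibp1, both at 0.038, with differences of 0.79, 0.78 and 0.80. These distances rest on 1 contrast of 3 against 3 arrays and describe similar size and spread.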

How the data were processed

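Total RNA of 6 samples was hybridised to Affymetrix Mouse430 version 2 arrays. The authors deposited a log2 signal for each probe set and array, made with GCOS 1.4 and RMA, per the submitters' processing notes, and used as they stand. RMA quantile-normalises arrays, which can hide a global shift, and pulls small differences of dim probe sets towards 0. Which arrays were normalised together is not given in the sources used here. Groups and replicate numbers came from the array titles. The labels do not state separate cultures, so the p-values cover only variation between these samples, which may be technical. Precision is limited by having 3 arrays a group.

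Of 45101 probe sets, 64 control sets were left out and 45037 tested with no filter on low values. A platform annotation gave 34945 of them 1 symbol, 932 several and 9160 none, and 34741 symbols were updated by gene ID with a RefSeq table of GRCm38.p6. limma 3.58.1 (lmFit, eBayes; R 4.3.3) was fitted with group as the only term, two-sided, with Benjamini-Hochberg adjustment over all probe sets and a threshold of 0.05. A second fit took the probe set with the highest mean per gene. Another tested within-array differences between each probe set and the brightest of its gene. The script was tested on simulated data with 50 changed probe sets at each size of shift. It recovered 4% of shifts of 0.3 and 76% of shifts of 0.6 in log2 signal, so small changes can be missed. Far fewer sets changed there than on these arrays, so these shares are not those of the data. An exact permutation test of 3 against 3 arrays cannot give a p below 0.1 and was not used.

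The members, the pathway list and the marker lists were chosen with earlier results of these data known. All members were named, the pathway genes past the threshold were named with values for the 4 largest each way, and 3 genes were named for likeness to Gbx2 and to Pim1. Tyk2, Yes1, Pim3, Cntfr, Ptpn6 and, in the additional observations, Socs2 and Ptpn2 are given values outside this rule, chosen after their values were seen. Same-numbered arrays did not deviate together (correlations of -0.30 to -0.15), so replicate numbers were not used as a block in the main tests. Between arrays of different number the correlations ran from -0.13 to 0.31, and no label states a pairing.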

Additional observations from a re-analysis of the deposited data

How the results depend on the processing

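None of the 25 member probe sets changed direction under any alternative run. Of the 12 called, 5 kept their call under every alternative and 9 under every one but the 1.2-fold minimum, and of the 13 not called 11 stayed so, the exceptions being Stat3 1460700_at and Socs3 1416576_at. A 1.2-fold minimum (limma treat) left 5 member probe sets, 2 risen and 3 fallen, 4 pathway genes risen and 4 fallen, 1728 of all probe sets (1119 risen, 609 fallen) and 1279 genes. With the replicate number as a block, which the arrays do not bear out as a pairing, all probe sets that fell were 1965, pathway genes that fell 6, pairs of probe sets that differ 901 and member sets that differ from their brightest 1. The block ended the calls of Lif 1421207_at (adjusted p = 0.0522) and Stat3 1426587_a_at (0.132). Without probe sets of the x, s and a types, 7 pathway genes fell. Leaving out each array gave 4266 to 5574 probe sets (2365 to 3073 risen, 1901 to 2501 fallen), 3133 to 3986 genes, 10 to 12 member probe sets (5 to 6 risen, 5 to 6 fallen), 6 to 7 member genes, 12 to 13 pathway genes risen and 6 to 12 fallen. The counts of all probe sets, 4266, and of those that fell, 1901, were without control replicate 1. Pairs of probe sets that differ numbered 815 to 1244, from 815 without control replicate 1, 862 without Panct1 knockdown replicate 2 and 1043 without control replicate 2, against 1594, and member sets that differ 1 to 2. Array weights ended the call of Stat3 1426587_a_at (0.0507). The causes were not tested. Median centring and a repeated quantile normalisation moved the median difference of all probe sets by under 0.1.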

Other observations

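Discordant probe sets also occurred among the inhibitors of the pathway, which were chosen here after their values were seen. Socs2, a feedback inhibitor of cytokine receptors, read 7.02, 6.84 and 6.59 in Panct1 knockdown and 7.81, 7.91 and 7.96 in controls at probe set 1438470_at, a difference of -1.08 (limma adjusted p = 3.50e-04). Its brightest set, 1449109_at, differed by -0.11 without passing (adjusted p = 0.359), and the changes of these 2 sets differed by -0.97 (95% interval -1.22 to -0.72; adjusted p = 0.00242). Of the 6 Socs2 sets only 1438470_at passed, and those not yet given were at -0.14, -0.04, 0.02 and 0.14. Ptpn2, a phosphatase that removes phosphate from JAK and STAT proteins, fell by 0.71 at 1425197_at and by 0.68 at 1425198_at (adjusted p = 7.31e-04 and 0.00973). Its brighter sets 1438562_a_at and 1417140_a_at were at 0.14 and 0.12 (adjusted p = 0.233 and 0.390). The changes of the dimmer Ptpn2 sets differed from that of the brightest by -0.85 and -0.83 (adjusted p = 0.00265 and 0.0123). For Ptpn2 as for Il6st, whether a change was called differed between probe sets. Which transcripts these sets read was not analysed here.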
